A study of Mus musculus with 34 samples.

Results

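The 10 genes described here encode carrier and inhibitor proteins that hepatocytes secrete into plasma: Alb, Gc, Ttr, Rbp4, Ahsg, Fetub, Ambp, Mug1, Azgp1 and Cp. They were taken by symbol from 3 deposited RNA-seq tables, all 10 symbols were present in each table, and all 10 passed the filters on low values. The tables list 46528 genes for the mixed strain tumors, 16140 for the FVB tumors and 14074 for the Rag1-/- livers. The 34 libraries come from mouse liver tumors and from livers. Tumors arose in mice with LAP-tta and TRE-MYC, in which doxycycline withdrawal switches on MYC in hepatocytes, and were collected at the time of death. In the first table, on a mix of C57/B6, 129 and FVB backgrounds, 8 tumors came from Het mice (Arid1a fl/+ with Alb-cre) and 8 from WT mice (Arid1a fl/fl without Cre), both groups at about 90 days of age. In the second table, on FVB, 4 tumors came from Homo mice (Arid1a fl/fl with Alb-cre, about 100 days), 4 from Het mice (about 70 days) and 4 from WT mice (no Cre, about 55 days). In the third table, livers of FVB Rag1-/- mice, which lack mature lymphocytes and here also carry LAP-tta and TRE-MYC with WT Arid1a, were collected on day 14 following adenovirus with either human ARID1A (3 livers, called ad-ARID1A) or Cre (3 livers, called ad-Cre), at about 42 days of age. The labels give their tissue as liver but their source as tumor tissue, and name ad-Cre columns for the ad-ARID1A livers, which were matched by number to the ad-ARID1A columns. Cre in the tumors comes from Alb-cre, a transgene named for the albumin promoter, and Alb is among the genes described. Age and Cre moved with genotype in the FVB tumors, Cre moved with genotype in the mixed strain tumors, and among the livers only the controls received Cre. The labels do not say that the libraries of a group came from separate mice, so p-values measure the spread between these libraries.

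Albumin is the most abundant plasma protein and carries fatty acids, bilirubin, hormones and drugs. The other carriers are more selective: Gc holds vitamin D, Ttr holds thyroxine and docks with Rbp4, which brings retinol out of the liver, and Cp is a copper ferroxidase. Ahsg and Fetub are fetuins, Ambp is cut into a heme-binding lipocalin and the protease inhibitor bikunin, Mug1 is a rodent inhibitor of the alpha-macroglobulin family, and Azgp1 is a zinc-binding glycoprotein known for lipid mobilisation. Hepatocytes make all of them. In bulk tissue, fewer hepatocytes and less message per hepatocyte cannot be told apart.

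The promoters of 4 of these genes are shown because the results below turn on these genes: Alb and Gc as the carriers of highest level per length in most tumor groups, and Ahsg and Fetub as neighbours that were low in the same mixed strain tumors. Each stretch holds 250 bases before and 50 after the start that RefSeq gives the gene on its own strand, build GRCm38.p6. The gene spans given further on are from the GENCODE annotation and can start elsewhere; for Ahsg the whole stretch lies inside the GENCODE span. Capitals mark matches on either strand to GTTAATNAT, part of the site of the hepatocyte factor HNF1, and to TTNNGNAA, a short form of the site shared by the PAR bZIP factors (Dbp, Tef, Hlf) and C/EBP. The Alb stretch (chr5:90460620-90460919, plus strand) is that of the mouse's own gene; the sequence in the Alb-cre transgene was not used here.
Alb: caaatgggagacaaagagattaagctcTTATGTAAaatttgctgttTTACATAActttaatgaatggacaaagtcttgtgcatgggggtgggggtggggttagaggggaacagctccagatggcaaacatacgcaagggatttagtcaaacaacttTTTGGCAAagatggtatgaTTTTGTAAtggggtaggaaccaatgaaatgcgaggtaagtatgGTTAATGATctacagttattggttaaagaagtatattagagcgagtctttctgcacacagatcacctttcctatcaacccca
Gc: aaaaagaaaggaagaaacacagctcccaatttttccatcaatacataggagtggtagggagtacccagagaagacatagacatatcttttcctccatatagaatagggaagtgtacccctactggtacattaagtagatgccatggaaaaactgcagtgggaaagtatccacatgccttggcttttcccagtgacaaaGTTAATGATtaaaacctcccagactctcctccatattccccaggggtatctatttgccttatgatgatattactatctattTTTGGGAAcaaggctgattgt
Ahsg: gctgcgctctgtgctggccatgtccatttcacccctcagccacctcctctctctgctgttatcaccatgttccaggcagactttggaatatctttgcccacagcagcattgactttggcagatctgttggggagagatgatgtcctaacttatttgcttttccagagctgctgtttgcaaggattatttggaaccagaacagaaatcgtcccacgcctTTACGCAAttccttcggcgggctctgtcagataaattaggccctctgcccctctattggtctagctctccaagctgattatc
Fetub: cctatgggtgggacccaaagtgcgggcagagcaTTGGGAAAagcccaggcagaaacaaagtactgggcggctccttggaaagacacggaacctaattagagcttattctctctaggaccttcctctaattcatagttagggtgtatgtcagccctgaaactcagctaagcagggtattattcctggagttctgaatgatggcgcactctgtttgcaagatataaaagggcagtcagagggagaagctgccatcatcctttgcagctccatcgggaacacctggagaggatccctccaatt
The other stretches lie at chr5:89457849-89458148 on the minus strand for Gc, chr16:22891765-22892064 on the plus strand for Ahsg and chr16:22918132-22918431 on the plus strand for Fetub. A promoter was listed for 9 of the 10 genes. GTTAATNAT was found in 3 of those 9 (Alb, Gc and Cp), against 0.801% of all 32817 promoters of this length, and it starts at -32 in Alb and at -52 in Gc. TTNNGNAA was found in 6 of the 9, against 40.7% of all promoters. The Alb promoter holds 4 matches to TTNNGNAA, at -223, -204, -94 and -75, and 0.853% of all promoters hold at least 4. The matched letters do not overlap between the motifs in these 4 stretches. A match is a run of letters, not a measured binding site.

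The levels are log2 values of CPM, reads scaled to a common library total. The mixed strain table back-transformed to CPM and is given as log2(CPM + 0.5). For FVB tumors and Rag1-/- livers the authors gave normalized log2 CPM in which values at or below 1 CPM are listed at 0, and each table was normalized on its own. Library depth, estimated from the step between low values, was 2.27 to 5.29 M reads in mixed strain tumors, 6.63 to 12.04 M in FVB tumors and 8.72 to 10.61 M in Rag1-/- livers. Arid1a, the gene deleted in hepatocytes, averaged 8.07 ± 0.14 in Het and 8.47 ± 0.21 in WT mixed strain tumors (SD, n = 8 each). Het 6 (8.37) was above WT 3, WT 4 and WT 6 (8.31, 8.32 and 8.30). In FVB tumors it averaged 7.74 ± 0.23 in Homo, 7.77 ± 0.31 in Het and 8.09 ± 0.25 in WT (SD, n = 4 each), and the groups overlapped, with Het 4 (8.19) above WT 2 and WT 3 (8.12 and 7.73). Homo 2, 3 and 4 and Het 1 also lay above WT 3. In these libraries the level of the targeted gene lay within the WT range, and whether this bears on their labels was not tested. Results that rest on the mixed strain library labelled Het 6 or the FVB library labelled Het 4 are also given without it. The mouse gene averaged 6.99 ± 0.22 in ad-ARID1A livers and 6.84 ± 0.02 in ad-Cre livers (SD, n = 3 each), and a human transgene need not be counted on it. The summed level of 10 hepatocyte markers was 1700 to 5030 CPM in Het and 4270 to 11400 CPM in WT mixed strain tumors, 2930 to 9170 CPM in all FVB tumors, and 32700 to 38900 CPM in Rag1-/- livers. Fits without mixed strain WT 2 and Het 5, and without FVB WT 1 and WT 2, were added after the data were seen and are given where they change a call or a direction.

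The carriers held a larger share of the reads in livers than in tumors, across tables that were normalized separately and in which Rag1 genotype, virus, age and table cannot be told apart from tumor. Together the 10 genes made up 0.128% to 0.662% of the reads in mixed strain tumors, 0.327% to 0.928% in FVB tumors and 6.20% to 7.30% in Rag1-/- livers. Per kilobase of exon, Alb stood first among the 10 in every group but FVB Het tumors. There the mean level per length was 654.3 CPM per kb for Alb and 654.9 CPM per kb for Gc, a difference far inside the spread between libraries. In Rag1-/- livers the order behind Alb was Ahsg, Ttr, Gc and Mug1 in both groups. In all 5 tumor groups Gc was among the first 2, and Azgp1, Mug1, Fetub and Cp took the last 4 places. In the mixed strain libraries reads per kb stayed at 846.5 to 949.1 for Gc and 798.4 to 923.8 for Ambp, whatever the depth. The part of this in the shares and the order there was not tested.

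**Figure D1:**
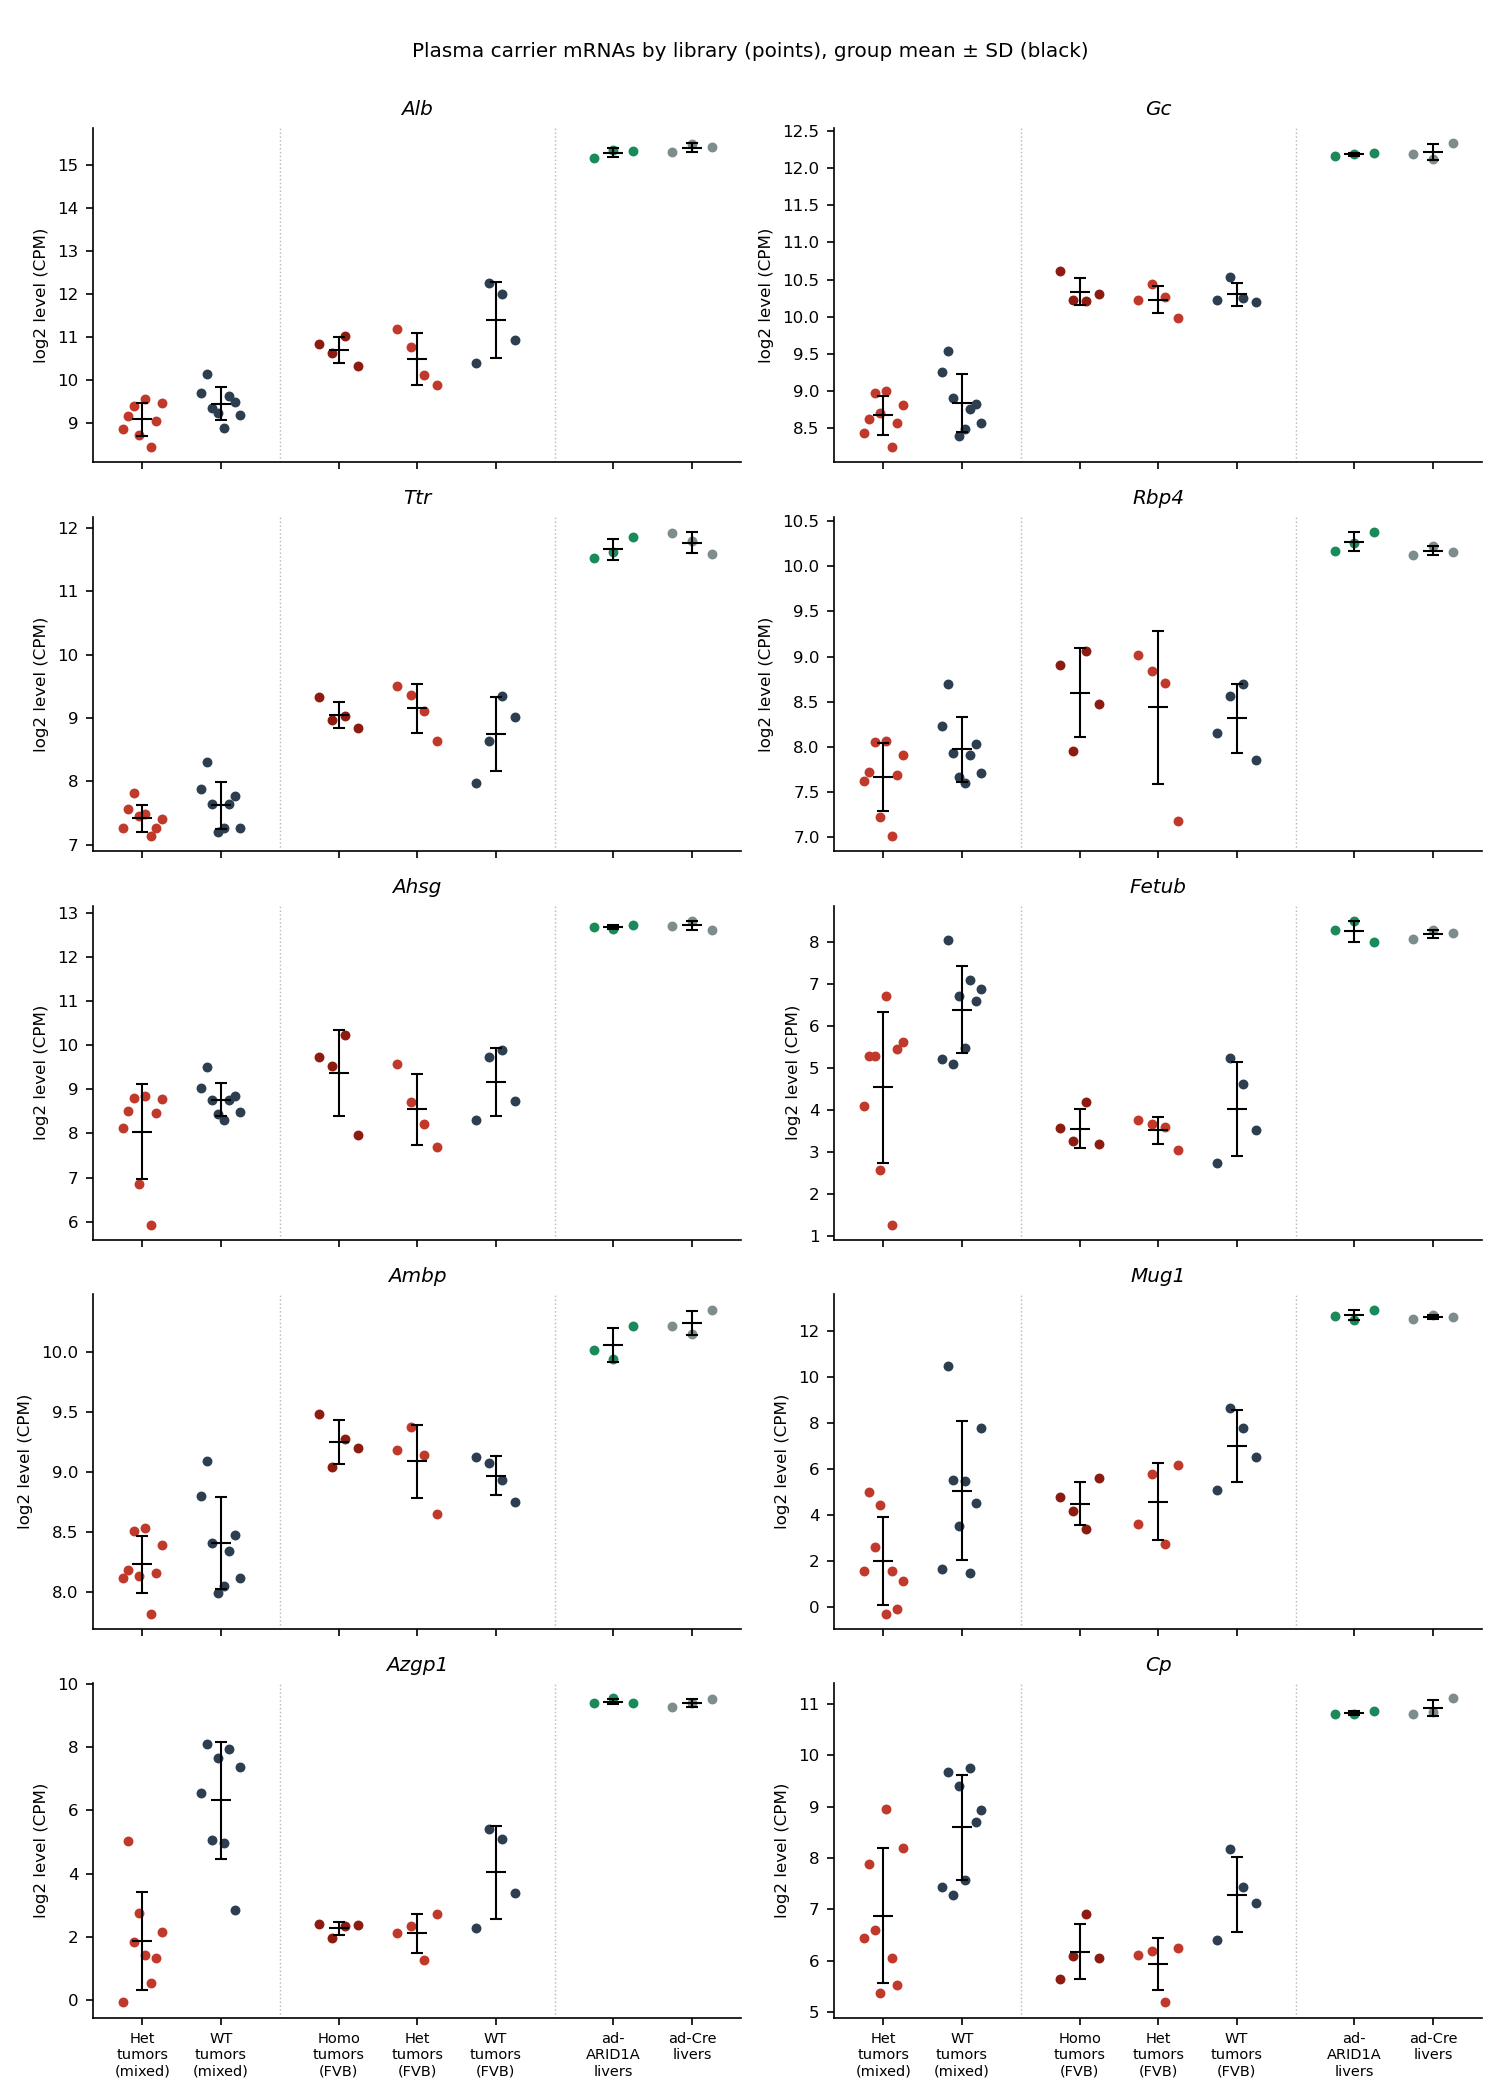
Level of each carrier in every library (points, log2 of CPM, with 0.5 added in the mixed strain tumors) with group mean ± SD in black, for Het and WT mixed strain tumors, Homo, Het and WT FVB tumors, and ad-ARID1A and ad-Cre Rag1-/- livers; dotted lines part the 3 tables, which were normalized separately. Liver libraries sit close together for all 10 genes, while Fetub, Mug1, Azgp1 and Cp spread over several log2 units among tumors; Azgp1 averaged 1.87 in Het and 6.32 in WT mixed strain tumors.

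Against WT, the differences of the carriers formed a graded series, with Mug1, Azgp1 and Cp the lowest 3 in both FVB comparisons and Azgp1, Mug1, Fetub and Cp the lowest 4 in mixed strain tumors. In mixed strain tumors all 10 genes had a lower mean in Het than in WT, with a median log2 difference of -0.54, against 0.05 over all genes tested; 43.9% of all genes were lower. Median depth was 4.225 M reads in Het and 3.79 M in WT, and some of these levels moved with depth, as given below. All 10 kept their sign with depth as a term. Of the 10, 1 passed limma's test with Benjamini-Hochberg adjustment over all genes (Azgp1), against 0.16% of all 17552 genes, or 0.12% lower. At an unadjusted p under 0.05 the count was 4, all lower (Azgp1, Cp, Mug1 and Fetub), against 15.8% of all genes in either direction and 7.5% lower. In FVB Homo tumors 5 genes were lower and 5 higher than in WT, with a median of -0.22 against -0.02 over all genes. None passed the adjusted test, which 0.0434% of genes passed, and 3 had an unadjusted p under 0.05 (Mug1, Azgp1 and Cp, all lower), against 10% of all genes in either direction and 5.64% lower. In FVB Het tumors 7 were lower and 3 higher than in WT, with a median of -0.57 against 0.02. Again none passed the adjusted test, which 0.0248% of genes passed, and 4 had an unadjusted p under 0.05 (Alb, Mug1, Azgp1 and Cp, all lower), against 14.2% of all genes in either direction and 6.07% lower. The Homo and Het comparisons share the 4 WT tumors, and the FVB and mixed strain tables share no library.

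**Figure D2:**
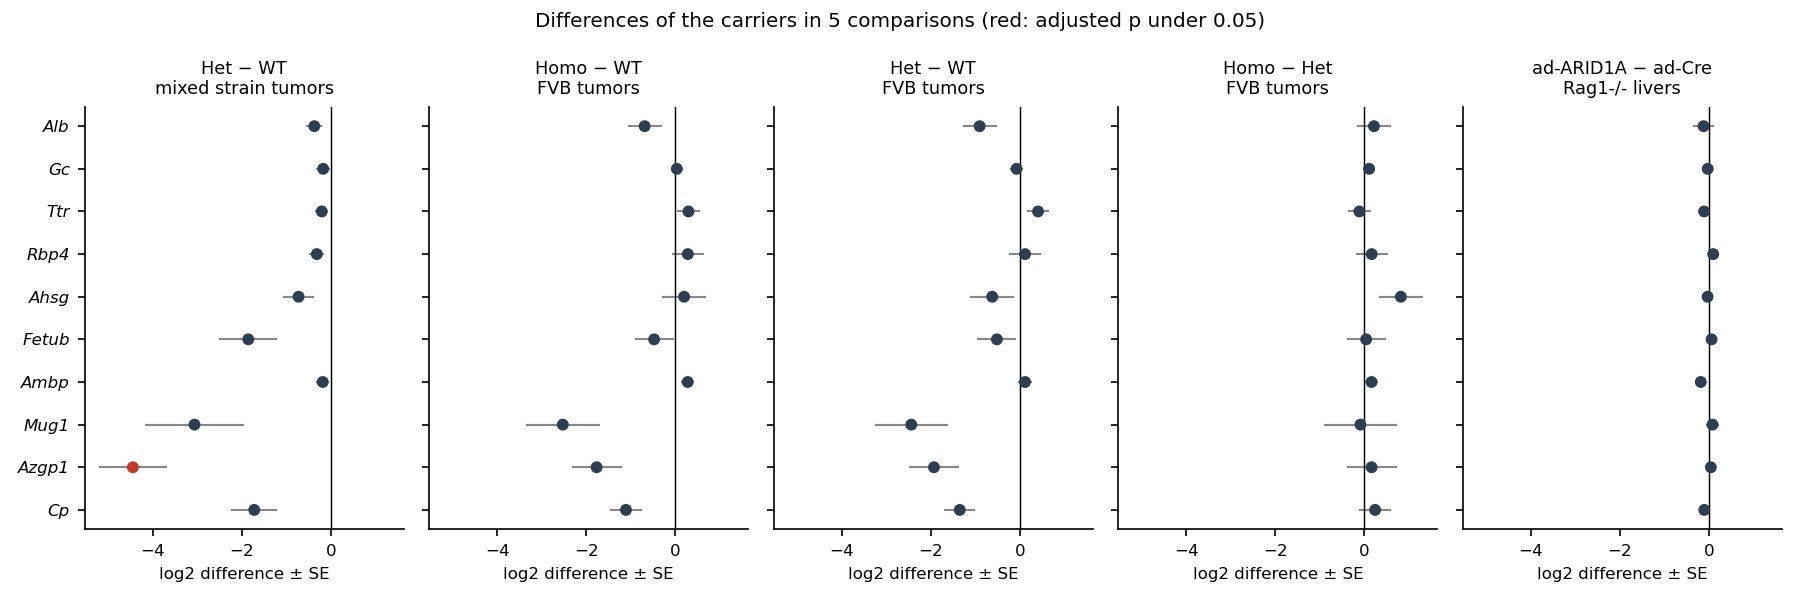
Log2 difference ± SE of each carrier in 5 comparisons, each panel named by the group on the left minus the group on the right, with red for a limma adjusted p under 0.05. Azgp1 in mixed strain tumors (-4.45 ± 0.76) is the only red point, Mug1, Azgp1 and Cp lie to the left in all 3 comparisons with WT tumors, and all points for Rag1-/- livers lie within 0.2 of 0.

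No carrier passed the test between Homo and Het FVB tumors. Here 8 genes had a higher mean in Homo than in Het and 2 a lower one, with a median difference of 0.16 against -0.04 over all genes. By limma 0 of the 10 passed, 0 had an unadjusted p under 0.05, and across all genes 0% passed while 3.86% (623 genes) had an unadjusted p under 0.05. The largest difference was that of Ahsg (0.82 ± 0.50, SE). Rag1-/- livers also showed 0 carriers past the test, against 0.32% of all genes, and 0 at an unadjusted p under 0.05, against 12.5%. Their differences, ad-ARID1A minus ad-Cre, ran from -0.18 ± 0.10 for Ambp to 0.10 ± 0.09 for Rbp4 (SE), with a median of -0.03 against 0.09 over all genes. With each library centred on its median, Ambp was at -0.27 with an unadjusted p of 0.0378 (limma adjusted p = 0.432), and again 0 passed.

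In the mixed strain table the levels of Gc and Ambp moved with library depth. Gc had 303.4 to 511.0 CPM in Het tumors and 336.8 to 743.4 CPM in WT tumors, and the highest level belonged to the library of lowest depth (WT 2, 2.27 M reads) and the lowest to that of highest depth (Het 6, 5.29 M). Multiplied by depth, these levels come to 1562 to 1751 reads on Gc in all 16 libraries, a 1.12-fold range, while depth had a 2.33-fold range. The same product was 1125 to 1302 reads for Ambp (1.16-fold), 572 to 830 for Ttr (1.45-fold), 601 to 1042 for Rbp4 (1.73-fold) and 1707 to 3144 for Alb (1.84-fold). It was wider for the other carriers, at 319.5 to 1792 for Ahsg (5.61-fold) and 165 to 3492 for Cp (21.2-fold). Among all 7110 genes at a mean log2 level of at least 5, only 9.17% varied less as reads than as CPM. In FVB tumors reads on Gc ran from 8071 to 17800, a 2.21-fold range, while its CPM varied 1.54-fold. Among the 200 protein-coding genes of highest level, level and exonic length had a Spearman rho of 0.27 in the mixed strain table, 0.03 in the FVB table and -0.16 in the Rag1-/- table, a description over genes with the same libraries. The sources used here do not say whether reads at shared positions were collapsed, and the part of depth in the levels was tested only by adding it to the fit. With log2 depth as a term, chosen after the data were seen, the Het minus WT difference of Gc was -0.05 ± 0.05 and that of Ambp -0.06 ± 0.05 (SE).

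**Figure D3:**
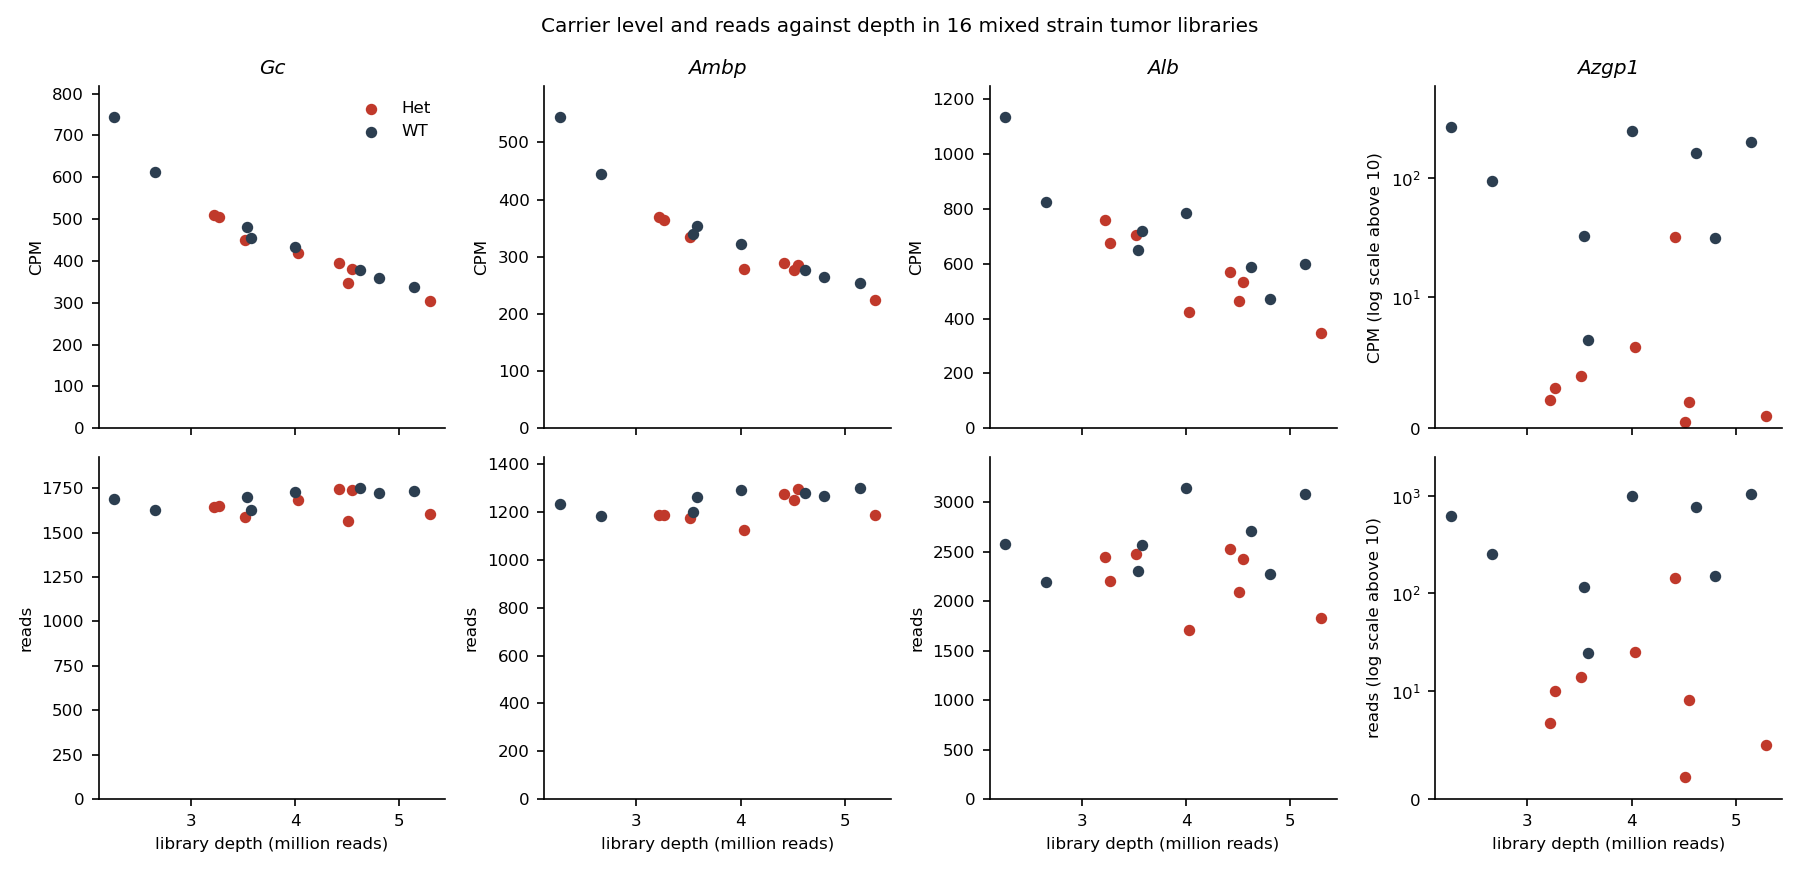
Level in CPM (top) and level times depth in reads (bottom) against library depth for Gc, Ambp, Alb and Azgp1 in the 8 Het and 8 WT mixed strain tumor libraries, with a log scale above 10 for Azgp1 alone. CPM of Gc and Ambp falls as depth grows while their reads stay within 1562 to 1751 and 1125 to 1302; reads on Azgp1 range from 2.0 to 1042 with no such line.

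Albumin (Alb, ENSMUSG00000029368, GRCm38 chromosome 5, 90460897 to 90476602, plus strand) was the first gene of every Rag1-/- liver and held a smaller share of tumor RNA. In mixed strain tumors its level was 8.44 at lowest, 9.11 at median and 9.57 at highest in Het, against 8.89, 9.42 and 10.15 in WT. The groups overlapped over most of their range, and the difference was -0.37 ± 0.18 (SE, limma adjusted p = 0.319). In FVB tumors Alb was 10.84, 10.62, 11.03 and 10.32 in Homo, 11.19, 10.77, 10.11 and 9.88 in Het, and 10.40, 12.25, 11.99 and 10.92 in WT. WT 2 and WT 3 stood above all other FVB tumors, and WT 1 was near the low end of the Homo tumors. Homo minus WT was -0.69 ± 0.38 (limma adjusted p = 0.586) and Het minus WT -0.90 ± 0.38 (limma adjusted p = 0.302). In Rag1-/- livers Alb was 15.16, 15.35 and 15.32 with ad-ARID1A and 15.29, 15.49 and 15.41 with ad-Cre, overlapping groups with a difference of -0.12 ± 0.23 (limma adjusted p = 0.865). Afp, the fetal albumin of yolk sac and liver, whose gene lies 14.1 kb beyond Alb, averaged 11.05 ± 0.15 in Homo, 11.32 ± 0.77 in Het and 10.30 ± 1.39 in WT FVB tumors (SD, n = 4 each), and 3.84 ± 0.19 and 3.90 ± 0.25 in ad-ARID1A and ad-Cre livers (SD, n = 3 each).

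Gc, the vitamin D carrier of the albumin family (ENSMUSG00000035540, chromosome 5, 89417522 to 89457898, minus strand, 1003 kb from Alb), was the steadiest carrier of the FVB tumors. It was 10.61, 10.23, 10.21 and 10.30 in Homo, 10.23, 10.44, 10.26 and 9.99 in Het, and 10.23, 10.53, 10.25 and 10.20 in WT. The 3 groups lay on top of each other, and the SD within groups was 0.18, against 0.64 for Alb in the same tumors and a median of 0.20 over genes of mean level of at least 5. Homo minus WT was 0.04 ± 0.14 and Het minus WT -0.07 ± 0.14 (SE). In Rag1-/- livers Gc was 12.16, 12.19 and 12.20 with ad-ARID1A and 12.18, 12.12 and 12.33 with ad-Cre. The vitamin D genes taken as a list (receptor, hydroxylases and uptake receptors, 8 genes) gave 0 calls in every comparison. In mixed strain tumors 4 of its 7 measured members were lower and 3 higher in Het. Cyp27a1, a hydroxylase of vitamin D and bile acid synthesis, averaged 4.49 ± 1.33 in Het and 5.66 ± 1.01 in WT (SD, n = 8 each, limma adjusted p = 0.293). Lrp2, the megalin receptor that takes up carrier-bound vitamins, averaged 6.49 ± 1.75 in Homo, 7.59 ± 0.68 in Het and 4.47 ± 1.18 in WT FVB tumors (SD, n = 4 each); Het minus WT was 3.12 ± 0.74 (SE, limma adjusted p = 0.0986).

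Ttr and Rbp4, which travel together in plasma, did not pass the test in any comparison. Ttr (ENSMUSG00000061808, chromosome 18) was 7.13, 7.43 and 7.82 at lowest, median and highest in Het mixed strain tumors, against 7.21, 7.65 and 8.30 in WT. In FVB tumors it was 9.33, 8.97, 9.03 and 8.84 in Homo, 9.51, 9.37, 9.11 and 8.63 in Het, and 7.98, 8.63, 9.35 and 9.02 in WT. All 3 groups overlapped, with the lowest value in WT 1. Het minus WT was 0.41 ± 0.26 (SE, limma adjusted p = 0.524); without WT 1 and WT 2, left out after the data were seen, it was -0.03 and Homo minus WT was -0.14 in place of 0.30. Under array weights, which give discordant libraries less say, the Het difference was 0.73 with a limma adjusted p of 0.0322. Far more of all genes passed under these weights than in the main fit, as counted in the closing section. Rbp4 (ENSMUSG00000024990, chromosome 19, 38116629 to 38125281, minus strand) was 7.01, 7.71 and 8.07 at lowest, median and highest in Het mixed strain tumors, against 7.61, 7.92 and 8.70 in WT (difference -0.31 ± 0.17, SE). In FVB tumors Rbp4 was 8.91, 7.96, 9.06 and 8.48 in Homo, 9.02, 8.84, 8.71 and 7.18 in Het, and 8.16, 8.56, 8.70 and 7.86 in WT. The groups overlapped, Het 4 was the lowest FVB tumor, and Homo minus WT was 0.28 ± 0.36 and Het minus WT 0.12 ± 0.36 (SE). Ttr in livers averaged 11.66 ± 0.17 with ad-ARID1A and 11.77 ± 0.17 with ad-Cre, and Rbp4 10.27 ± 0.11 and 10.17 ± 0.05 (SD, n = 3 each).

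Among the partners of these carriers, Lrat, which stores retinol as esters, fell in FVB Het tumors. It was listed at 0, 0, 0 and 0.29 in Het, against 2.72, 2.25, 2.94 and 2.37 in WT. The groups did not overlap, as for 2.47% of all genes lower in FVB Het tumors. The difference on this floored scale was -2.50 ± 0.31 (SE, limma adjusted p = 0.0234). Of 10 measured genes of retinol handling Lrat was the 1 that passed. The call was lost without Het 2 (limma adjusted p = 0.0819), Het 3 (0.167), WT 2 (0.0552) or WT 3 (0.0611), without WT 1 and WT 2 together (0.0685), or with depth as a term (0.0634). In Homo tumors Lrat was 0, 1.13, 0.59 and 1.44 (Homo minus WT -1.78 ± 0.31, limma adjusted p = 0.0740, or 0.0203 with the floor raised to 1), and in mixed strain tumors it averaged 0.60 ± 0.79 in Het and 2.80 ± 1.70 in WT (SD, n = 8 each, limma adjusted p = 0.133). Lrat is also a marker of stellate cells, and of 9 stellate and fibroblast markers it was the 1 that passed; the summed level of the 9 was 434 to 599 CPM in FVB Het and 435 to 728 CPM in FVB WT tumors, and its part in the result was not tested. In the thyroid list (7 genes) 0 passed in any comparison. Its Thrsp, a thyroid hormone responsive gene of lipogenesis, averaged 2.19 ± 1.70 in Het and 4.72 ± 1.51 in WT mixed strain tumors (SD, n = 8 each, limma adjusted p = 0.138), and 1.06 ± 0.39 in Homo and 3.87 ± 1.33 in WT FVB tumors (SD, n = 4 each, limma adjusted p = 0.172). Serpina7, the thyroxine-binding globulin, averaged 5.16 ± 0.37 in ad-ARID1A and 3.31 ± 0.90 in ad-Cre livers (SD, n = 3 each, limma adjusted p = 0.0907). Its groups did not overlap, as for 13.9% of all genes higher in ad-ARID1A livers.

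The fetuin genes were low in the same mixed strain tumors. Ahsg (ENSMUSG00000022868, chromosome 16, 22891277 to 22899449, plus strand), whose protein keeps calcium phosphate in solution, and Fetub (ENSMUSG00000022871, chromosome 16, 22918334 to 22939778, plus strand), which in mice guards the egg coat from early hardening, lie 18.9 kb apart, and their promoters are printed above. Ahsg was 5.93 at lowest, 8.49 at median and 8.86 at highest in Het, against 8.30, 8.75 and 9.50 in WT. Het 6 (5.93) and Het 4 (6.86) lay far below the other 14 libraries, which all were at 8.13 or above. Fetub was 1.26, 5.28 and 6.71 at lowest, median and highest in Het, against 5.09, 6.64 and 8.06 in WT, and its lowest libraries were again Het 6 (1.26) and Het 4 (2.57). Hrg, the histidine-rich glycoprotein, lies 11.3 kb beyond Fetub and was 0.10 in Het 6, 1.76 in Het 1 and 2.69 in Het 4, against 4.89 to 8.56 in WT. Alb was 8.44 and 8.73 in Het 6 and Het 4, also the lowest of the 16. Hpx (5.90 and 6.46) and A2m (3.59 and 2.75), secreted proteins not among these neighbours, were lowest in Het 6 and Het 4 as well. The low values were thus not particular to the neighbours of Ahsg. Mug1 went the other way in Het 4 (4.41), near the top of the Het values. Het minus WT was -0.72 ± 0.36 for Ahsg (SE, limma adjusted p = 0.336), -1.85 ± 0.65 for Fetub (limma adjusted p = 0.203) and -2.79 ± 0.77 for Hrg (limma adjusted p = 0.136). Without Het 6 the differences were -0.42 for Ahsg, -1.38 for Fetub and -2.25 for Hrg.

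**Figure D4:**
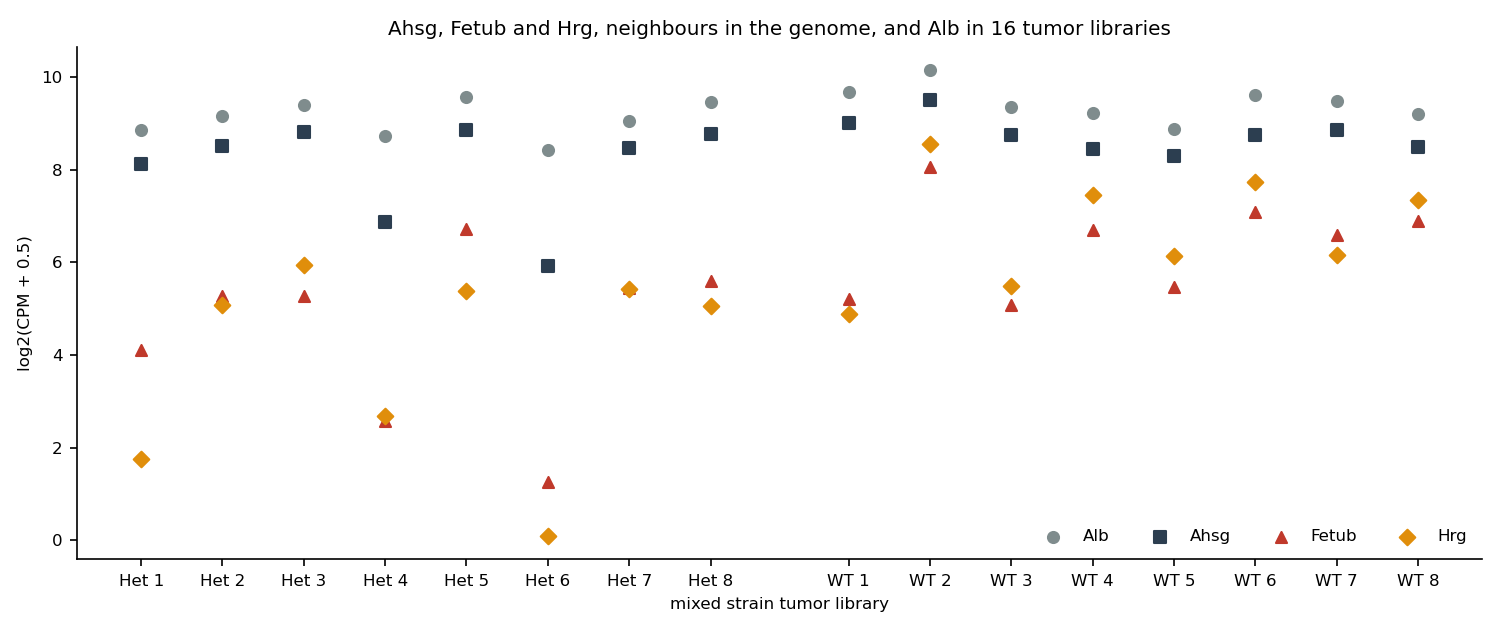
Level (log2 of CPM + 0.5) of Ahsg, Fetub and Hrg, which lie side by side in the genome, and of Alb in each of the 8 Het and 8 WT mixed strain tumor libraries. Het 6 and Het 4 are lowest for Ahsg (5.93 and 6.86) and Fetub (1.26 and 2.57), and Het 6 is lowest for Hrg (0.10), while Alb stays between 8.44 and 10.15.

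In FVB tumors the fetuins did not separate the genotypes. Ahsg was 9.73, 9.53, 10.24 and 7.97 in Homo, 9.57, 8.71, 8.22 and 7.69 in Het, and 8.31, 9.73, 9.89 and 8.74 in WT, and the spread within each group was wider than any difference between group means. Fetub was 3.56, 3.25, 4.19 and 3.18 in Homo, 3.75, 3.65, 3.58 and 3.04 in Het, and 2.72, 5.23, 4.61 and 3.52 in WT. WT held both the lowest and the highest value. Among Rag1-/- livers Ahsg averaged 12.68 ± 0.05 with ad-ARID1A and 12.71 ± 0.10 with ad-Cre, and Fetub 8.25 ± 0.25 and 8.19 ± 0.10 (SD, n = 3 each).

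The protease inhibitors split into a steady and a variable member. Ambp (ENSMUSG00000028356, chromosome 4, 63143275 to 63154799, minus strand) was 7.82, 8.17 and 8.53 at lowest, median and highest in Het mixed strain tumors, against 7.99, 8.37 and 9.09 in WT, largely overlapping groups. It averaged 9.25 ± 0.18 in Homo, 9.09 ± 0.31 in Het and 8.97 ± 0.17 in WT FVB tumors (SD, n = 4 each). Homo minus WT was 0.28 ± 0.15 (SE, limma adjusted p = 0.577), and the livers gave 10.05 ± 0.14 with ad-ARID1A and 10.24 ± 0.10 with ad-Cre (SD, n = 3 each). Mug1 (ENSMUSG00000059908, chromosome 6, 121838541 to 121889057, plus strand) had the widest range of all 10 carriers in the mixed strain tumors. It was -0.30 at lowest, 1.56 at median and 4.97 at highest in Het, against 1.46, 4.97 and 10.45 in WT, which is 0.310 to 30.8 CPM against 2.25 to 1398 CPM. WT 2 (10.45) stood apart, 6 of the other 7 WT tumors lay among the Het values or within 0.6 of the highest, and the difference was -3.06 ± 1.12 (SE, limma adjusted p = 0.217); without WT 2 and Het 5 it was -1.96. In FVB tumors Mug1 was 4.75, 4.18, 3.37 and 5.59 in Homo, 3.58, 5.76, 2.72 and 6.18 in Het, and 5.07, 8.64, 7.79 and 6.50 in WT. Only WT 1 fell within the range of the deleted tumors; Homo minus WT was -2.53 ± 0.83 (limma adjusted p = 0.313) and Het minus WT -2.44 ± 0.83 (limma adjusted p = 0.205). Mug1 is near-identical in part to Mug2, 117.7 kb away, and how the authors' counting shared reads between them is not known, so its level is uncertain to that extent.

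Mug2 was listed at 0 in 4 of 4 FVB Het tumors and was 0.68, 3.0, 1.59 and 1.34 in WT (limma adjusted p = 0.101). Livers held Mug2 at 7.04 ± 0.26 with ad-ARID1A and 7.56 ± 0.16 with ad-Cre (SD, n = 3 each, limma adjusted p = 0.159), and Mug1 averaged 12.68 ± 0.22 and 12.60 ± 0.08. Of the inhibitor partners taken as a list (12 genes: other macroglobulins, inter-alpha inhibitor chains and receptors), 0 passed in any comparison, with 9 of 10 measured members lower in Het mixed strain tumors and a median difference of -1.12 against 0.05 over all genes. A2m, the archetype of the family, averaged 5.34 ± 1.42 in Het and 7.56 ± 0.95 in WT mixed strain tumors (SD, n = 8 each, limma adjusted p = 0.0968), and 4.5 ± 1.25 in Het and 7.05 ± 0.99 in WT FVB tumors (SD, n = 4 each, limma adjusted p = 0.159).

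Azgp1 (ENSMUSG00000037053, chromosome 5, 137981520 to 137990233, plus strand) was the carrier that fell in Het mixed strain tumors. Its level was -0.08 at lowest, 1.63 at median and 5.03 at highest in Het, against 2.85, 6.96 and 8.09 in WT; in CPM the medians were 2.62 in Het and 129 in WT. All Het tumors but Het 2 (5.03) lay below every WT tumor, the lowest of which was WT 7 (2.85). The means were 1.87 ± 1.56 in Het and 6.32 ± 1.86 in WT (SD, n = 8 each), a difference of -4.45 ± 0.76 (SE, limma adjusted p = 0.0256), or 0.0458-fold. By level times depth the Het libraries held between 2.0 and 142 reads on Azgp1 and the WT libraries between 24.1 and 1042. The adjusted call was lost without Het 1 (limma adjusted p = 0.0564), Het 3 (0.0596), Het 6 (0.0623), WT 1 (0.0548), WT 6 (0.0529) or WT 8 (0.0592), and also with depth as a term (0.0540), without WT 2 and Het 5 together (0.0628) or with no filter on low genes (0.163). The difference stayed between -4.94 and -4.17 when any 1 library was left out. In FVB tumors Azgp1 was 2.40, 1.97, 2.33 and 2.38 in Homo, 2.11, 2.35, 1.26 and 2.71 in Het, and 2.27, 5.42, 5.09 and 3.37 in WT. The Homo tumors lay within 0.43 of each other near the value of WT 1, and the other 3 WT tumors lay above all Homo and Het tumors; Homo minus WT was -1.77 ± 0.56 (limma adjusted p = 0.299) and Het minus WT -1.93 ± 0.56 (limma adjusted p = 0.152). With array weights, under which far more of all genes passed than in the main fit, the Het difference was -1.99 (limma adjusted p = 0.0346). Azgp1 in livers averaged 9.45 ± 0.09 with ad-ARID1A and 9.40 ± 0.13 with ad-Cre (SD, n = 3 each).

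Cp (ENSMUSG00000003617, chromosome 3, 19957054 to 20009145, plus strand), ceruloplasmin, was the only carrier whose groups did not overlap in a comparison of tumors, which held for 2.47% of all genes lower in FVB Het than in WT. It was 6.12, 6.20, 5.19 and 6.24 in Het, against 6.41, 8.18, 7.43 and 7.13 in WT, and the gap between the groups was narrow. The difference was -1.35 ± 0.35 (SE, limma adjusted p = 0.116). With array weights, under which far more of all genes passed than in the main fit, it was -1.51 (limma adjusted p = 0.0189). Homo tumors were at 5.64, 6.10, 6.92 and 6.06, with Homo 3 inside the WT range (Homo minus WT -1.11 ± 0.35, limma adjusted p = 0.300). In mixed strain tumors Cp was 5.37 at lowest, 6.52 at median and 8.95 at highest in Het, against 7.28, 8.82 and 9.75 in WT (difference -1.72 ± 0.52, SE, limma adjusted p = 0.157). Het 5, Het 8 and Het 2 lay inside the WT range and the other 5 Het tumors below it. The copper list (12 genes: transporters, chaperones and metallothioneins) gave 0 calls in every comparison. Its Ccs, a copper chaperone, averaged 6.65 ± 0.31 in Het and 6.91 ± 0.33 in WT mixed strain tumors (SD, n = 8 each, limma adjusted p = 0.399). Mt1, a metallothionein, averaged 8.11 ± 0.35 in Homo and 7.49 ± 0.03 in WT FVB tumors (SD, n = 4 each, limma adjusted p = 0.287), and 4.08 ± 0.39 with ad-ARID1A and 4.91 ± 0.36 with ad-Cre in livers (SD, n = 3 each, limma adjusted p = 0.175).

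Markers of other cells differed in level between tumors beside these differences, and apart from Lrat none of them passed the test against WT. The summed level of 9 neutrophil markers was 5.69 to 36.7 CPM in Het and 14.4 to 168 CPM in WT mixed strain tumors, with Ly6g at 0 in all Het. In FVB tumors 8 of these markers were measured, and their sum was 1.80 to 156 CPM in Homo, 0 to 1.19 CPM in Het and 2.53 to 104 CPM in WT, with 7 of them at 0 in all Het tumors. The 6 erythroid markers all had a lower mean in FVB Het than in WT tumors, and their sum was 11.1 to 15.2 CPM in Het, against a median of 218 and a highest value of 411 CPM in WT, whose lowest tumor lay below all Het tumors, with Hba-a2 and Epb42 at 0 in all Het. Of 8 endothelial markers 7 were lower in FVB Het (sum 84.1 to 148 CPM, against 111 to 255 CPM in WT) and 6 in mixed strain Het (106 to 296 CPM, against 141 to 441 CPM in WT). All 9 stellate and fibroblast markers were lower in FVB Homo than in WT tumors (110.0 to 668 CPM in Homo, against 435 to 728 CPM in WT). The 10 hepatocyte markers all had a lower mean in Het than in WT mixed strain tumors (0 passed the test), beside the 10 of 10 carriers that were lower there. The part of any of these in the carriers' differences was not tested.

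Single tumors were high or low for several carriers at once. In the mixed strain table WT 2 was highest for 9 of the 10 genes, with Cp the exception, and Het 6 was lowest for 7. WT 2 had the lowest depth (2.27 M reads) and Het 6 the highest (5.29 M). By level times depth WT 2 was not highest for Gc (1688 reads, against 1751 in WT 8) or Ambp (1235, against 1302 in WT 4). It was still highest for Fetub and Mug1. The part of depth in these counts and in the shares of reads below was not tested. In the FVB table WT 2 was highest for 5 genes (Alb, Fetub, Mug1, Azgp1 and Cp) and Het 4 was lowest for 5 (Alb, Gc, Rbp4, Ahsg and Ambp). The 10 genes summed to 0.128% of reads in mixed strain Het 6 and 0.662% in WT 2, and to 0.327% in FVB Het 4 and 0.928% in FVB WT 2. Without FVB Het 4 the Het minus WT difference was -0.70 for Alb, -0.33 for Ahsg and 0.54 for Rbp4, and again 0 carriers passed. Within groups the SD of the mixed strain tumors was 0.30 for Ttr and 0.32 for Ambp, and it was 1.71 for Azgp1 and 2.53 for Mug1. For livers the SD within groups was between 0.08 and 0.19 for all 10.

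Likeness to Alb was measured as the SD over libraries of a gene's log2 ratio to Alb, a description over libraries that share depth. Among 7110 genes at a mean level of at least 5 in the 16 mixed strain tumors, the smallest values belonged to Rbp4 (0.11), the fibrinogen chains Fgg, Fga and Fgb (0.14 each) and Apoa1, the main protein of high-density lipoprotein (0.14), while the level of Alb itself had an SD of 0.42. Ambp stood at place 17, Gc at 31 and Ttr at 60, while Ahsg was at 2816, Cp at 7012 and Fetub at 7060. In this table reads on Gc, Ambp, Ttr, Rbp4 and Alb had a 1.12-fold to 1.84-fold range, against 2.33-fold for depth. The part of depth in these places was not tested. Among 5619 genes in the 12 FVB tumors those near the front included Pzp, a macroglobulin (0.24), Gstm1 (0.44), Itih2 (0.48) and Serpina1b (0.48), with an SD of 0.70 for Alb. Cp stood at place 10 (0.50) and Ahsg at 25 (0.55). Gc was at 146 (0.65), Rbp4 at 339 (0.68), Ttr at 965 (0.72), Ambp at 1110 (0.73) and Mug1 at 5601 (1.49). A gene of constant level would have the SD of Alb itself, so values near or above 0.70 do not by themselves show likeness. The measure also grows with a gene's own spread, so a large value does not show that a gene moved apart from Alb. Mug1 and Azgp1 in mixed strain tumors, and Fetub and Azgp1 in FVB tumors, were under the minimum level and have no place. Fetub had an SD of 0.32 in FVB tumors.

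The lists of secreted liver proteins and of albumin's handling give the surroundings of these values. Of 27 related secreted hepatocyte proteins, 25 were measured in mixed strain tumors, all 25 had a lower mean in Het, 0 passed the test, and the median difference was -0.79 against 0.05 over all genes. Hp, haptoglobin, averaged 4.91 ± 1.80 in Het and 7.43 ± 0.94 in WT (SD, n = 8 each, limma adjusted p = 0.111). In FVB tumors Orm1, an acute-phase carrier of basic drugs, fell in both deleted groups. It was listed at 0, 0, 1.27 and 0 in Homo, 0, 0.38, 0 and 0.64 in Het, and 1.99, 3.78, 2.69 and 3.37 in WT. On this floored scale Homo minus WT was -2.64 ± 0.40 (limma adjusted p = 0.0328) and Het minus WT -2.70 ± 0.40 (limma adjusted p = 0.0465), and it was the only one of 25 measured to pass. The Homo call was lost without Homo 1 (limma adjusted p = 0.178), Homo 2 (0.0874), Homo 4 (0.104), WT 2 (0.136) or WT 3 (0.110), and the Het call without Het 1 (0.111), Het 2 (0.147), Het 3 (0.235), WT 2 (0.212) or WT 3 (0.0850). Both calls were also lost without WT 1 and WT 2 together (0.0864 for Homo, 0.0685 for Het), in a fit of the 2 groups alone (0.222 and 0.108), with the floor raised to 1 (0.0983 and 0.0592) and with depth as a term (0.101 and 0.114), and the Homo call with centred libraries (0.0586). Fcgrt, the receptor that recycles albumin, averaged 5.44 ± 0.17 in Het and 4.83 ± 0.25 in WT FVB tumors (SD, n = 4 each, limma adjusted p = 0.0975) and 6.49 ± 0.04 with ad-ARID1A and 6.18 ± 0.05 with ad-Cre in livers (SD, n = 3 each, limma adjusted p = 0.165); 0 of the albumin recycling and uptake genes passed in any comparison.

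In ad-ARID1A livers the PAR bZIP factors rose. Alb, whose promoter holds the 4 TTNNGNAA matches shown above, differed by -0.12 ± 0.23 (SE, limma adjusted p = 0.865). That error leaves room for a change of either sign, and a link between these factors and Alb was not tested. Dbp, first described as a factor binding the albumin promoter and an output of the circadian clock, was 6.16, 6.26 and 5.63 with ad-ARID1A and 4.16, 3.91 and 4.06 with ad-Cre. Tef, of the same family, was 7.36, 7.34 and 7.41 with ad-ARID1A and 6.36, 6.46 and 6.21 with ad-Cre, and Hlf was 6.50, 6.55 and 6.57 against 6.0, 6.0 and 6.08 with ad-Cre. The groups did not overlap for any of the 3 genes, as for 13.9% of all genes higher in ad-ARID1A livers. The differences were 1.97 ± 0.17 for Dbp and 1.03 ± 0.09 for Tef (SE, limma adjusted p = 0.00234 each), and 0.51 ± 0.08 for Hlf (limma adjusted p = 0.0376). These were the 3 of 19 measured albumin regulators that passed; the list was chosen with earlier results of these livers known and is not independent evidence. Dbp and Tef lost the call without ad-ARID1A liver 1 (limma adjusted p = 0.0671 for both), and Hlf lost it without any single one of the 6 livers (0.115 to 0.189). With the floor raised to 1, Dbp (0.0659) and Hlf (0.0900) lost it, and Hlf also with depth as a term (0.0966) or centred libraries (0.104). In tumors 0 of the 19 regulators passed in any comparison; Tef averaged 6.84 ± 0.27 in Het and 6.21 ± 0.18 in WT FVB tumors (SD, n = 4 each, limma adjusted p = 0.113), and Nfia 6.77 ± 0.49 in Het and 7.44 ± 0.42 in WT mixed strain tumors (SD, n = 8 each, limma adjusted p = 0.164).

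Tumors were set against the non-tumor livers by rank among 13016 symbols present in all 3 tables, a description with no test. Rag1 genotype, virus, age and table cannot be told apart from tumor in this comparison, nor can strain for the mixed strain tumors. Alb ranked 19 to 337 in mixed strain tumors and 8 to 47 in FVB tumors, against 1 in all 6 Rag1-/- livers. Gc kept a high place, at 66 to 492 in mixed strain tumors and 27 to 44 in FVB tumors, against 18 to 26 in livers. Ttr ranked 484 to 2141 and 71 to 509 in the mixed strain and FVB tumors, against 27 to 35 in livers, and Rbp4 267 to 2417 and 136 to 1184, against 67 to 84. Other carriers covered a wider span of ranks in tumors. Cp ranked 24 to 6240 in mixed strain tumors and 385 to 5090 in FVB tumors, against 47 to 50 in livers. Mug1 ranked 9 to 12571 in mixed strain tumors and 213 to 9879 in FVB tumors, against 10 to 16 in livers. Azgp1 ranked 665 to 12492 and 4782 to 11698 in mixed strain and FVB tumors, against 129 to 155 in livers, and Fetub 696 to 11525 and 5274 to 10058, against 299 to 445. Its neighbour Ahsg ranked 75 to 4940 in mixed strain tumors and 41 to 688 in FVB tumors, against 10 to 14 in livers.

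Every FVB tumor ranked below every liver for 9 of the 10 carriers, with Ambp (84 to 211 in FVB tumors, 70 to 99 in livers) the exception, against 22.8% of all symbols. For mixed strain tumors this held for 8, with Mug1 and Cp the exceptions, against 18.2% of all symbols. Of the 996 symbols with a median rank of 1000 or better in livers, as all 10 carriers have, 59.0% were lower without overlap in FVB tumors and 45.9% in mixed strain tumors. Ranked as a percent of all genes in their own table, the counts were 8 for FVB tumors and 4 for mixed strain tumors (Alb, Ttr, Ahsg and Azgp1). In the mixed strain table, where reads on Gc and Ambp were nearly constant, the highest level among the top 200 genes lay 2.78 log2 units above the lowest, against 6.52 in Rag1-/- livers, and the part of this in the ranks was not tested.

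**Figure D5:**
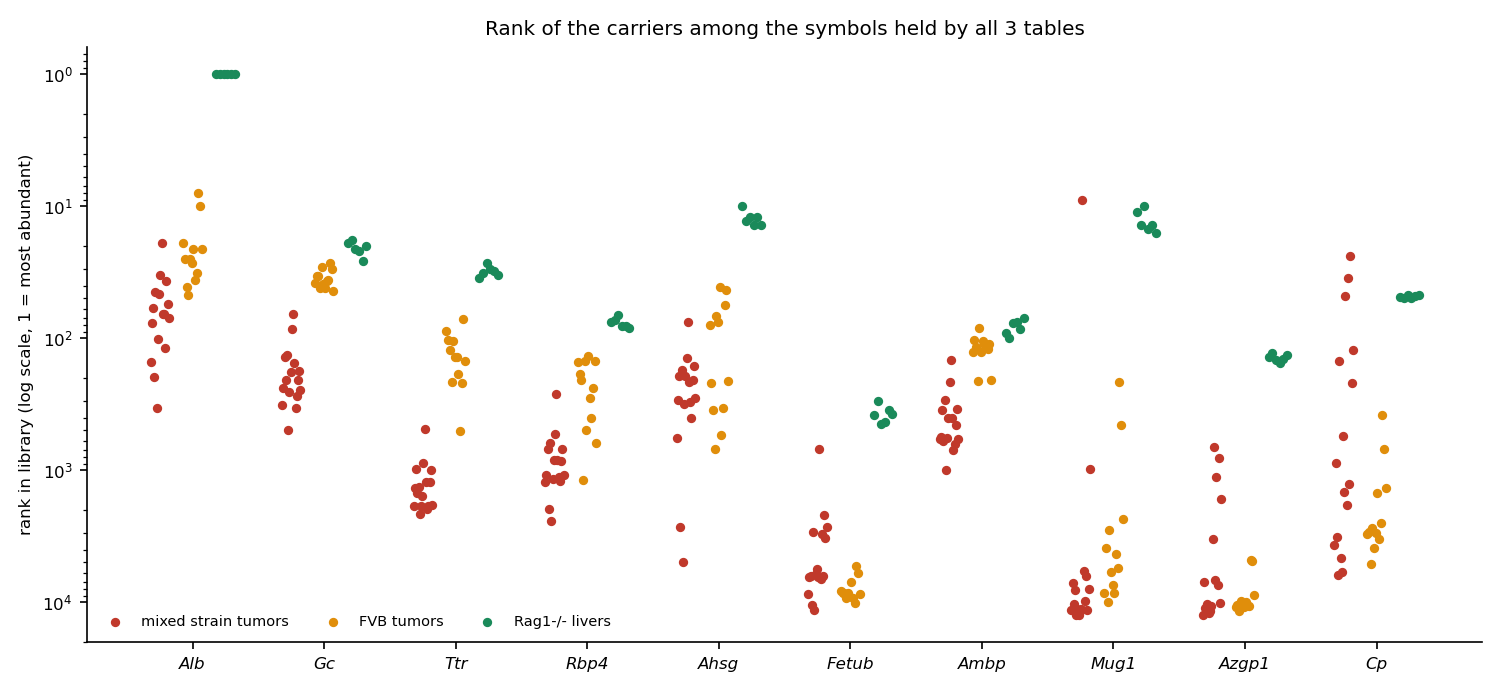
Rank of each carrier in every library among 13016 symbols (log scale, 1 at the top) in mixed strain tumors (red, n = 16), FVB tumors (orange, n = 12) and Rag1-/- livers (green, n = 6). Alb ranks 1 in all 6 livers, Gc lies within 27 to 44 in FVB tumors, and Fetub, Mug1 and Azgp1 fall far down the list in tumors of both models, to 12571 for Mug1.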

How the data were processed

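RNA sequencing values of 28 tumor and 6 liver libraries were taken from 3 tables. Per the labels' protocols, RNA was prepared with Trizol and miRNeasy and libraries with a Nugen kit. Trim Galore, HISAT2, featureCounts and SAMtools are listed, with build GRCm38 (mm10) and no versions, per the submitters' processing notes. The sources used here do not state strand, counting mode or the handling of duplicate reads. The deposited values are on a log2 scale with 2 decimals. The mixed strain table is named RPKM by the authors, but its deposited log2 values back-transform to nearly the same sum in every library, as log2(CPM + 1) does, so the planned test on RPKM was run on log2(CPM + 0.5), for the 17552 genes with a mean CPM of at least 0.5. The FVB and Rag1-/- tables hold the authors' normalized log2 CPM, with values at or below 1 CPM listed at 0, and every gene passed the filter of a mean of at least 0. Fold changes on these scales understate the change of low genes.

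Each table was fitted alone with limma 3.58.1 in R 4.3.3 (lmFit and eBayes with a variance trend), the 3 FVB groups in a single fit, with two-sided p-values adjusted by Benjamini-Hochberg over all genes of the table at a threshold of 0.05. The fit was tested on simulated data. Depth was recovered from the steps of low values; reads given for a gene are its level times depth, and no count test was run because higher values are too coarsely rounded. Groups come from the genotype and virus labels, since the treatment text words Het and Homo alike. Ranks were computed among 13016 symbols held by all 3 tables. All 10 carriers were named in each comparison. From each related list the members past the threshold (up to 5) or else the 2 of smallest p were eligible to be named, and of these the text gives a part; Hrg in its neighbourhood, Afp, Mug2 and values of a named gene in other comparisons were added after their values were seen. Some results are not reported here. The carriers and lists were chosen with earlier results of these data known. Alternatives were other pseudocounts, filters, floors and scalings, array weights, a replicate block, fits of 2 groups alone, each library left out and, added after the data were seen, depth as a term and pairs of libraries left out. Python 3.11.15, pandas 2.3.3, numpy 2.4.6, scipy 1.17.1 and matplotlib 3.10.9 were used.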

Additional observations from a re-analysis of the deposited data

Results flagged for a closer look

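In groups of 4 to 10 libraries, 4 of 50 pairs of carrier and group had a library farther from its nearest neighbour than Dixon's 95% critical value allows, and chance flags about 1 in 20. Azgp1 in FVB Homo 2 was 1.97, with the nearest Homo tumor at 2.33. Rbp4 in FVB Het 4 was 7.18, with the nearest Het tumor at 8.71. Cp in FVB Het 3 was 5.19, with the nearest Het tumor at 6.12. Gc in FVB WT 2 was 10.53, with the nearest WT tumor at 10.25.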

How the results depend on the processing

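The count of all genes past the threshold moved more than the carriers did. In mixed strain tumors it was 28, against 101 with array weights, 9 with depth as a term, 3 with no filter, 75 with a replicate block, 16 without WT 2 and Het 5, and 8 to 138 with 1 library left out. For FVB Homo minus WT it was 7, against 21 with array weights, 0 in a fit of the 2 groups alone, 4 with the floor raised to 1, 0 with depth, 0 when genes averaging under 2 log2 CPM were dropped, 1 with the replicate block, 3 without WT 1 and WT 2, and 0 to 36 with 1 library left out. For FVB Het minus WT it was 4 of 16140 genes, against 2287 with array weights. It was 1 for 2 groups alone, 1 with the raised floor, 7 centred and 0 with depth. It was 0 with the stricter filter, 0 with the block, and 1 without WT 1 and WT 2. With 1 library left out it was 0 to 256. Homo minus Het gave 0, also with the block, and 0 to 3 with 1 library left out. In Rag1-/- livers it was 45, against 3 with the raised floor, 59 with the block, and 0 to 19 with 1 library left out. Same-numbered libraries deviated together (r over 0.1) in 3 of 8 mixed strain pairs and 1 of 3 liver pairs. FVB counts were 2 of 4 (Het and WT), 2 of 4 (Homo and WT) and 1 of 4 (Homo and Het). The highest r was 0.501, in an FVB Het and WT pair. The main fits did not pair libraries by number, and these counts cannot exclude that some share a batch or litter. With the block the calls of Lrat and Orm1 in FVB Het tumors (limma adjusted p = 0.0685 each), Orm1 in Homo tumors (0.0531) and Hlf in livers (0.0518) were lost, and Lrat (0.0432) and Thrsp (0.0468) in mixed strain tumors were called. The cause of these shifts was not tested.

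Carriers past the threshold in mixed strain tumors went to 0 with depth as a term, with no filter and without WT 2 and Het 5. With 1 library left out they were 0 to 1. In FVB Het tumors the carriers past it went to 3 with array weights, under which far more of all genes passed. Carriers ranked below the livers in mixed strain tumors were 4 by own-table percent, a count that the longer gene list of that table can lower. All mixed strain differences of carriers kept their sign. Differences near 0 changed sign elsewhere. Without WT 1 and WT 2, FVB Het minus WT was 0.0050 for Gc and -0.03 for Ttr, and Homo minus WT -0.14 for Ttr; with depth, Het minus WT was -0.031 for Rbp4, Homo minus Het 0.0030 for Ttr, and ad-ARID1A minus ad-Cre 0.034 for Ahsg and -0.0055 for Azgp1. With array weights, Homo minus Het was -0.14 for Fetub, 0.45 for Mug1 and -0.19 for Rbp4, and Homo minus WT -0.018 for Gc. Centred, the livers gave -0.04 for Azgp1, -0.023 for Fetub and -0.0033 for Mug1. With 1 library left out, Het minus WT ran from -0.14 to 0.0075 for Gc and -0.077 to 0.54 for Rbp4; Homo minus WT from -0.091 to 0.67 for Ahsg and -0.056 to 0.11 for Gc; Homo minus Het from -0.12 to 0.36 for Azgp1, -0.0067 to 0.42 for Cp, -0.18 to 0.16 for Fetub, -0.70 to 0.45 for Mug1, -0.25 to 0.38 for Rbp4 and -0.29 to 0.0058 for Ttr; and the livers from -0.077 to 0.023 for Ahsg, -0.023 to 0.11 for Azgp1, -0.058 to 0.19 for Fetub, -0.072 to 0.033 for Gc and -0.042 to 0.18 for Mug1. Low depth limits genes of a few reads, such as Azgp1 in Het tumors.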
